A study of Homo sapiens with 12 samples.

Results

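The kallikrein protease cluster on chromosome 19 was followed through RNA sequencing of C4-2 cells, which descend from the LNCaP prostate cancer line and grow under castrate conditions. The 8 members followed here, KLK1, KLK2, KLK3, KLK4, KLK10, KLK11, KLK15 and the pseudogene KLKP1, are part of this cluster. They were taken by symbol from the 56269 genes of the count table. That rule uses no measured value, but the members were chosen with earlier results of these data known. The other 8 kallikreins are described further on. In all, 16115 genes had enough counts to be tested. Of the 8 members, 6 were among them, and KLK10 and KLK11 were too low.

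The design crossed an siRNA with an androgen. Cells received paxillin siRNA and dihydrotestosterone (DHT), paxillin siRNA and vehicle, nonspecific siRNA and DHT, or nonspecific siRNA and vehicle, with 3 libraries in each of the 4 groups. All cells were transfected for 48 h and kept without serum for 12 h, and then received 2.5 nM DHT or ethanol, the vehicle, for 24 h. Paxillin, the product of PXN, is a focal adhesion adaptor that also associates with nuclear hormone receptors. The groups are therefore 1 established line under transient knockdown, and the libraries analysed include no untransfected and no serum-fed cells. No source used here gives the sequence of either siRNA.

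Kallikreins are secreted serine proteases encoded side by side in a single cluster. In the prostate, luminal cells secrete several of them into seminal fluid, where a proteolytic cascade that includes KLK3, better known as prostate-specific antigen, liquefies the semen clot by cutting semenogelins. Transcription of KLK2 and KLK3 is a textbook readout of androgen action, and the serum level of the KLK3 protein is the standard marker of prostate cancer activity.

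Library totals ran from 11944906 counts, in replicate 1 of nonspecific siRNA with vehicle, to 32040465, and the other 11 libraries held at least 24207745. Levels are in CPM, the usual unit of counts relative to the library total, with totals scaled by the trimmed mean of M-values (TMM). PXN itself ran from 9.36 to 16.7 CPM in the 6 paxillin siRNA libraries, against 121 to 151 CPM in the 6 nonspecific siRNA libraries, so every library went with its siRNA label. All 7 luminal prostate markers examined were detected in every library and tested. Over all 12 libraries, the basal markers KRT5, TP63 and KRT14 summed to 2, 7 and 60 counts, the immune markers PTPRC, CD3E and CD68 to 3, 0 and 15, and the endothelial markers PECAM1 and CDH5 to 8 each. The stromal markers DCN and COL1A2 summed to 2 and 6 counts and the neuroendocrine marker CHGA to 3. VWF, VIM, COL1A1, ACTA2, SYP and INSM1, from the endothelial, stromal and neuroendocrine lists, held 223 to 10232 counts each. Whether replicates came from separate cultures is not stated. A p-value here is therefore set against the spread of these libraries, which may be technical.

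In GENCODE 29 on GRCh38, the members lie within 208.9 kb of chromosome 19, in the order KLK1, KLK15, KLK3, KLK2, KLKP1, KLK4, KLK10 and KLK11. The first 6 fill 91.6 kb, and a stretch of 102 kb that holds no member separates KLK4 from KLK10. KLK3 (chr19:50854915-50860764) and KLK2 (chr19:50861568-50880567) are on the plus strand. They are 803 bp apart in this annotation, whose KLK2 gene begins upstream of the RefSeq start at chr19:50873439. KLK1 (chr19:50819148-50823787), KLK15 (chr19:50825289-50837213), KLKP1 (chr19:50882096-50896398), KLK4 (chr19:50906352-50910738), KLK10 (chr19:51012739-51020175) and KLK11 (chr19:51022216-51028039) are on the minus strand. KLKP1 is annotated as a transcribed unprocessed pseudogene, that is, a former gene copy with introns that is still transcribed.

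Reads could be split between near-identical copies, so every 50-base stretch of the members' transcripts was compared with those of all other genes. KLK3 and KLK2, which are close paralogs, shared 11 stretches, equal to 0.21% of the 5119 in KLK3, and KLK2 shared 0.45% of its 6910 with any other gene. KLK10 shared 1.4% and KLK11 0.99% of their stretches with other genes, and KLK1, KLK15, KLKP1 and KLK4 shared none. Exons of KLK10 overlapped those of an antisense gene over 240 bp, and no other member had an exon overlap. The strand setting of the counting is not given in the sources used here. Within that overlap, 6.2% of the KLK10 exon bases, it is therefore unknown whether reads of KLK10 and the antisense gene were separated.

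The promoters of KLK3 and KLK2 are shown because of these adjacent paralogs KLK3 had the highest level and KLK2 the largest fold change in DHT. RefSeq promoter windows (GRCh38.p14, 250 bases before the transcription start and 50 after it) were available for 6 members, with 10 windows in all; KLK1 and KLKP1 had none. Lower case is used except for a stretch that matched the androgen-response half-site AGAACA or a relaxed inverted repeat (GNACA, then NNNN, then GTNC), which overlap in KLK3. The windows are chr19:50854665-50854964 for KLK3 and chr19:50873189-50873488 for KLK2, both on the plus strand, and the RefSeq start of KLK2 lies inside the longer GENCODE gene.
KLK3: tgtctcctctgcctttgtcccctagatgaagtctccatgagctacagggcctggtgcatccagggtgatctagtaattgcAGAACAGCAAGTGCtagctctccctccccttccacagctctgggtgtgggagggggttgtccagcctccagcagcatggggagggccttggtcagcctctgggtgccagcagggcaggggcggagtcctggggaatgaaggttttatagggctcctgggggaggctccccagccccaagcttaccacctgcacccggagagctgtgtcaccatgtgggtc
KLK2: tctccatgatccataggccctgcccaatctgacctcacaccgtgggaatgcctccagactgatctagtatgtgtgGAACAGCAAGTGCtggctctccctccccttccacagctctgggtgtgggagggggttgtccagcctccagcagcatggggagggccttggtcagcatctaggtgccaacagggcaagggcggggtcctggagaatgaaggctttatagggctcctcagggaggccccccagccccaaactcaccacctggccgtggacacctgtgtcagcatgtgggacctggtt

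The same 13 bases, GAACAGCAAGTGC, matched the relaxed repeat at -169 to -157 from the KLK3 start and at -175 to -163 from the KLK2 start. The half-site was found in KLK3 at -170 to -165 and not in the KLK2 window. Searched on both strands, the relaxed repeat was in 2.19% and the half-site in 14.8% of 35116 promoters of the same length. The strict palindrome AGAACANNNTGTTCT was in 1 promoter of all and in no member window. A TATAAA motif, on the minus strand, stood at -28 to -23 in KLK3 and at -34 to -29 in KLK2. TATAAA was also at -30 to -25 in 1 KLK15 window, and 11.5% of all promoters held it. No motif searched matched the KLK4, KLK10 and KLK11 windows, which says only that these letters are not in those windows. Aligned to each other, the KLK2 and KLK3 windows were identical in 85.1% of 288 ungapped columns, with an unbroken common run of 80 bases. These matches describe sequence and were not tested as binding sites.

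Levels within the cluster spanned several orders of magnitude, and the order of KLK2 and KLK4 per kilobase differed between DHT and vehicle. Per kilobase of annotated exon, KLK3 averaged 1750 CPM per kb in paxillin siRNA with DHT, 757 in paxillin siRNA with vehicle, 1896 in nonspecific siRNA with DHT and 917 in nonspecific siRNA with vehicle, and was the highest member in all 12 libraries. KLK2 averaged 166, 19.3, 170.0 and 22.1 CPM per kb in those groups. KLK4 averaged 112, 57.9, 115 and 62.3 CPM per kb. Per kilobase, KLK2 thus stood above KLK4 in all 6 DHT libraries and below it in all 6 vehicle libraries. That order in vehicle rests on the annotated exon lengths, 6.394 kb for KLK2 and 1.935 kb for KLK4. In CPM not divided by length, KLK2 averaged 123 and KLK4 112 in paxillin siRNA with vehicle. In nonspecific siRNA with vehicle KLK2 averaged 142 CPM and KLK4 120. In both vehicle groups KLK2 was above KLK4 in replicates 1 and 2 and below it in replicate 3. Below them came KLK15 at means of 7.12 to 10.8 CPM per kb, KLKP1 at 1.71 to 5.86 and KLK1 at 0.432 to 0.781, and the ranges of these neighbours over libraries did not overlap within any group. KLK11 and KLK10 were last, at or under 0.0806 CPM per kb, and their ranges overlapped in paxillin siRNA with DHT.

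KLK3 supplied most of the counts of the 8 members, at 86.1 ± 0.763% in paxillin siRNA with DHT, 93.2 ± 0.441% in paxillin siRNA with vehicle, 86.7 ± 0.938% in nonspecific siRNA with DHT and 93.7 ± 0.146% in nonspecific siRNA with vehicle. The 8 members took 0.909 ± 0.0154% of all counts in paxillin siRNA with DHT, 0.397 ± 0.0532% in paxillin siRNA with vehicle, 0.953 ± 0.00539% in nonspecific siRNA with DHT and 0.473 ± 0.0705% in nonspecific siRNA with vehicle (SD, n = 3 each). KLK3 ranked between 1 and 3 among all genes by count in the DHT libraries and between 5 and 14 in the vehicle libraries. KLK2 ranked between 84 and 105 in the DHT libraries, against 919 to 2430 in the vehicle libraries.

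**Figure D1:**
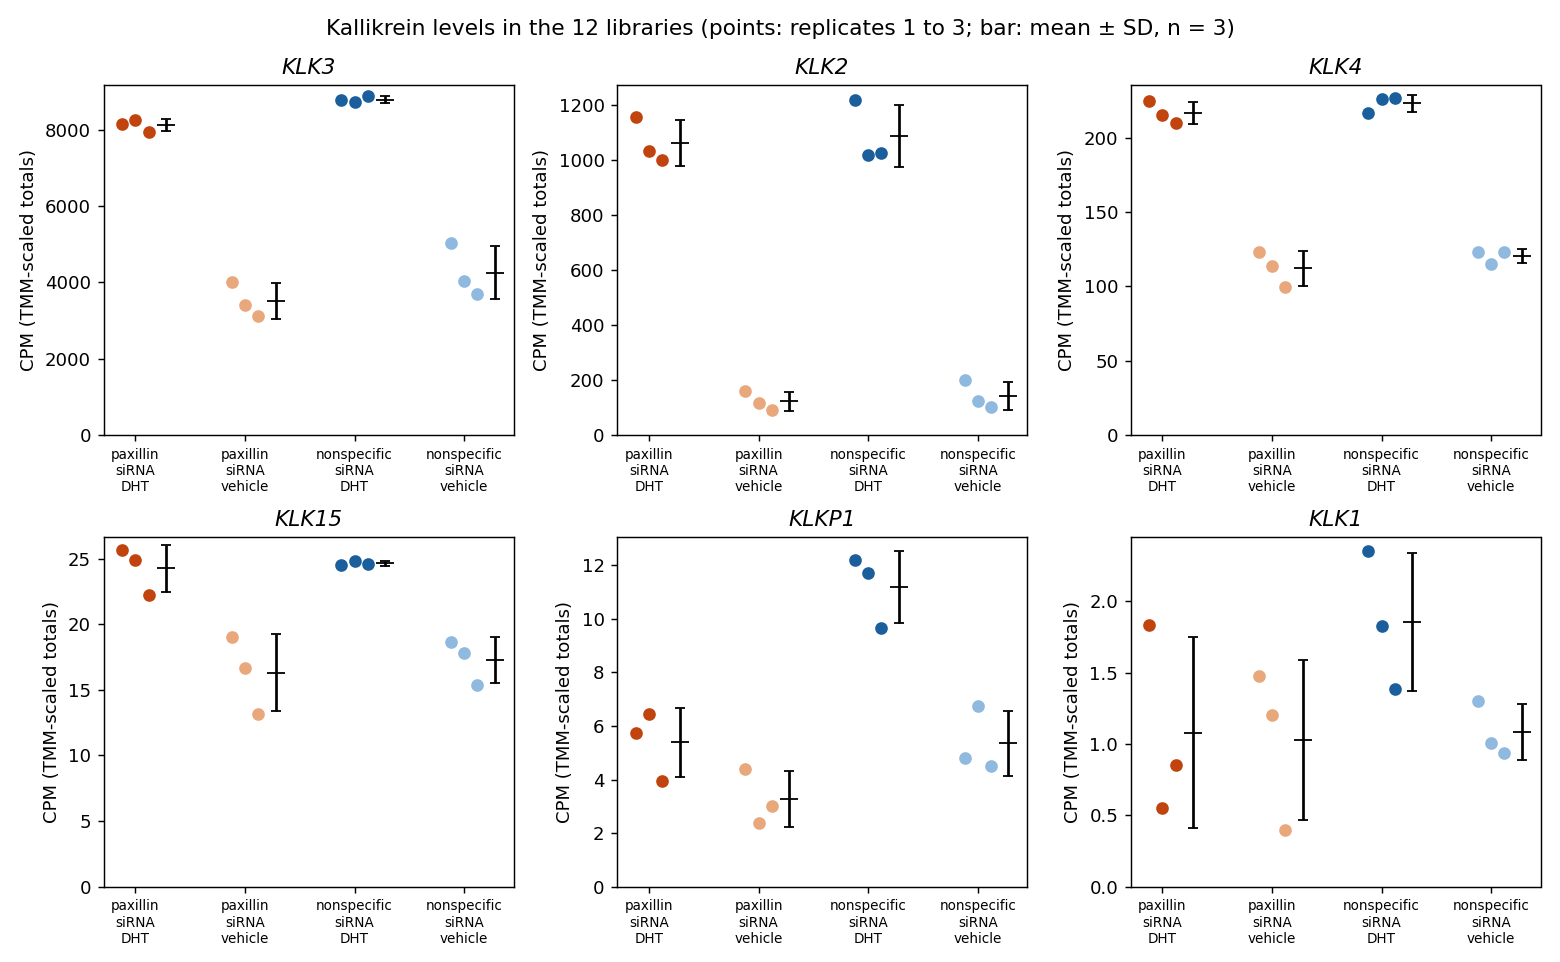
CPM of TMM-scaled library totals (vertical axes, each starting at 0) for the 6 tested kallikreins, with 1 point per replicate and the mean ± SD (n = 3) beside them, in the 4 groups. KLK3, KLK2, KLK4 and KLK15 are higher in both DHT groups than in both vehicle groups, while KLKP1 is highest in nonspecific siRNA with DHT, at 9.67 to 12.2 CPM.

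The first question was how the cluster responds to DHT when paxillin is depleted. Of 6 tested members, 5 rose (KLK2, KLK3, KLK4, KLKP1 and KLK15) and none fell. Of all tested genes 20.1% rose and 17.9% fell at the same threshold, an adjusted p under 0.05; with upper-quartile scaling 14% rose and 24.4% fell, and with no scaling beyond library totals 12% rose and 28.6% fell. The median log2 fold change was 0.83 over the members and -0.01 over all tested genes. With nonspecific siRNA 5 of 6 members also rose and none fell, against 21.6% raised and 18.9% lowered of all tested genes (16.8% and 24.2% with upper-quartile scaling, 12.4% and 32.2% with no scaling), and the medians were 0.97 and -0.01. The 5 members were the same in both comparisons, and each rose under every scaling. Without scaling, the median of all tested genes shifted by -0.13 with paxillin siRNA and by -0.15 with nonspecific siRNA. Counts relative to a library total measure neither cell number nor RNA per cell, and the cause of these shifts was not tested.

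KLK2 encodes a trypsin-like kallikrein that can cleave the KLK3 precursor to its active form in vitro, and it had the largest response of the cluster. With paxillin siRNA it had 1158, 1034 and 999 CPM in DHT, against 160, 117 and 91.9 CPM in vehicle. With nonspecific siRNA it had 1217, 1020 and 1025 CPM in DHT, against 199, 125 and 101 CPM in vehicle. The DHT and vehicle libraries were far apart under both siRNAs, and replicate 1 was the highest of its group in all 4 groups. The rise was 8.64-fold with paxillin siRNA (log2 3.11 ± 0.20 SE, edgeR adjusted p = 1.14e-09) and 7.74-fold with nonspecific siRNA (2.95 ± 0.20, adjusted p = 2.4e-09).

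KLK3, the chymotrypsin-like prostate-specific antigen, rose by a smaller factor from a much higher level. It had 8165, 8246 and 7944 CPM in DHT, against 4020, 3398 and 3111 CPM in vehicle, with paxillin siRNA. Nonspecific siRNA libraries had 8776, 8720 and 8885 CPM in DHT, against 5026, 4030 and 3704 CPM in vehicle. The DHT replicates lay close together while the vehicle replicates were spread, with replicate 1 highest under both siRNAs. The log2 fold change was 1.21 ± 0.11 (2.31-fold, edgeR adjusted p = 6.41e-08) with paxillin siRNA and 1.05 ± 0.11 (2.07-fold, adjusted p = 3.92e-07) with nonspecific siRNA.

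KLK4, a trypsin-like protease best known for processing tooth enamel matrix and abundant in prostate epithelium, rose by a factor close to that of KLK3 with both siRNAs. It had 225, 215 and 210.1 CPM in DHT, against 123, 114 and 99.4 CPM in vehicle, with paxillin siRNA. Its levels with nonspecific siRNA were 217, 226 and 227 CPM in DHT, against 123, 115 and 123 CPM in vehicle. No DHT library overlapped a vehicle library. The log2 fold change was 0.95 ± 0.07 with paxillin siRNA (edgeR adjusted p = 4.83e-09) and 0.89 ± 0.07 with nonspecific siRNA (adjusted p = 1.35e-08).

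KLK15, a trypsin-like kallikrein that can also activate the KLK3 precursor in vitro, had the smallest rise that passed the test. With paxillin siRNA it had 25.6, 24.9 and 22.3 CPM in DHT, against 19.04, 16.7 and 13.2 CPM in vehicle. Nonspecific siRNA libraries had 24.5, 24.8 and 24.6 CPM in DHT, against 18.7, 17.8 and 15.3 CPM in vehicle. The groups did not overlap, and the rise was 1.49-fold with paxillin siRNA (log2 0.57 ± 0.11, edgeR adjusted p = 0.000473) and 1.44-fold with nonspecific siRNA (0.52 ± 0.11, adjusted p = 0.00127).

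KLKP1, the pseudogene between KLK2 and KLK4, was called both for DHT and, as described further on, for the siRNA. It had 5.74, 6.45 and 3.96 CPM in DHT, against 4.41, 2.37 and 3.01 CPM in vehicle, with paxillin siRNA, and these groups overlapped. Nonspecific siRNA libraries had 12.2, 11.7 and 9.67 CPM in DHT, against 4.81, 6.74 and 4.51 CPM in vehicle, without overlap. The rise was 1.64-fold with paxillin siRNA (log2 0.72 ± 0.22, edgeR adjusted p = 0.0164) and 2.07-fold with nonspecific siRNA (1.05 ± 0.21, adjusted p = 0.000612). With paxillin siRNA the call was lost without replicate 2 of paxillin siRNA with DHT (adjusted p = 0.0833) and without replicate 2 (0.0949) or 3 (0.0554) of paxillin siRNA with vehicle. These values rest on 59 to 285 counts per library.

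KLK1, the tissue kallikrein that releases kinins from kininogen, was near the limit of detection at 11 to 56 counts per library. With paxillin siRNA it had 1.84, 0.551 and 0.855 CPM in DHT, against 1.48, 1.20 and 0.399 CPM in vehicle. Its levels with nonspecific siRNA were 2.36, 1.83 and 1.39 CPM in DHT, against 1.30, 1.01 and 0.940 CPM in vehicle. The groups overlapped with paxillin siRNA and did not with nonspecific siRNA. Neither difference passed the test: the log2 fold change was 0.09 ± 0.42 with paxillin siRNA (edgeR adjusted p = 0.886) and 0.81 ± 0.42 with nonspecific siRNA (adjusted p = 0.139). The second passed when low genes were kept (adjusted p = 0.0299) and when the compared groups were fitted alone (0.0343).

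KLK10 and KLK11 encode secreted kallikreins of many epithelia, and KLK11 is also made in normal prostate. KLK10 had 7 counts in all 12 libraries together, with 0 in 7 libraries, and KLK11 had 51, with at most 12 in a library. A count of 0 allows up to 3 counts, or 0.0936 to 0.251 CPM depending on the library. With no filter on low counts, neither passed the edgeR test in any of the 5 comparisons, with adjusted p-values of 0.357 or higher.

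**Figure D2:**
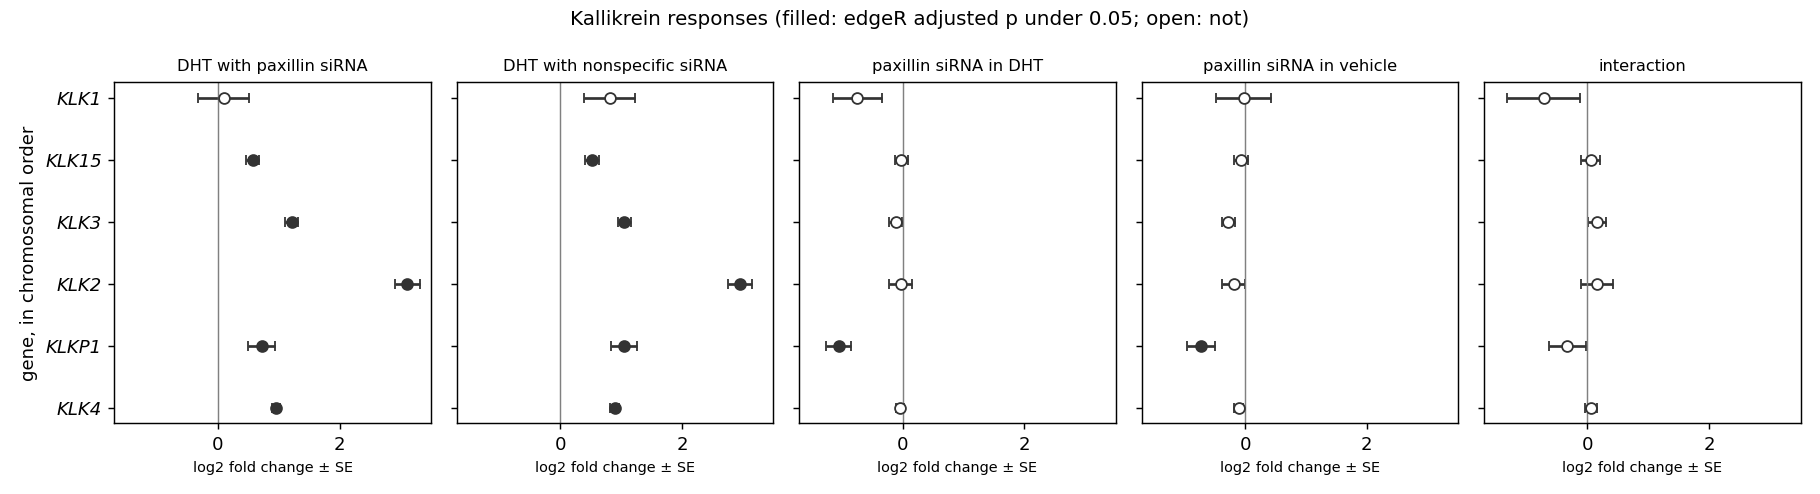
Log2 fold change ± SE (horizontal axes) of the 6 tested kallikreins in chromosomal order in the 5 comparisons, filled where the edgeR adjusted p was under 0.05. KLK2 stands apart in both DHT panels at 3.11 and 2.95, and KLKP1 is the filled point in both siRNA panels at -1.05 and -0.72.

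Because KLK2 and KLK3 are adjacent, their ratio within a library was examined, which no scaling of libraries can change. With paxillin siRNA there were 14.2, 12.5 and 12.6 KLK2 counts per 100 KLK3 counts in DHT, against 3.99, 3.44 and 2.95 in vehicle. With nonspecific siRNA there were 13.9, 11.7 and 11.5 in DHT, against 3.95, 3.10 and 2.73 in vehicle. All 6 DHT libraries were above all 6 vehicle libraries. The ratio was 3.82-fold higher in DHT (mean log2 difference 1.93, two-sided exact permutation test within siRNA, p = 0.005, the smallest that the 400 arrangements allow). With paxillin siRNA it was 1.06-fold that with nonspecific siRNA (mean log2 difference 0.09, two-sided exact permutation test within treatment, p = 0.405). That test ignores the pairing of libraries by replicate number. The ratio was higher with paxillin siRNA in 6 of 6 same-numbered pairs, and an exact permutation within pairs, added after seeing the data, gave p = 0.0312, the smallest that its 64 arrangements allow. KLK2 made up 11.3 ± 0.704% of the members' counts in DHT, against 3.23 ± 0.468% in vehicle, with paxillin siRNA. Under nonspecific siRNA that share was 10.7 ± 1.01% in DHT, against 3.05 ± 0.583% in vehicle.

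Relative to KLK3 the other members moved little or the opposite way. KLK4 had 2.67 counts per 100 KLK3 counts in DHT, against 3.20 in vehicle, with paxillin siRNA, and 2.54 against 2.88 with nonspecific siRNA. KLK15 had 0.299 in DHT, against 0.463 in vehicle, with paxillin siRNA, and 0.280 against 0.409 with nonspecific siRNA. These group means were not tested.

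**Figure D3:**
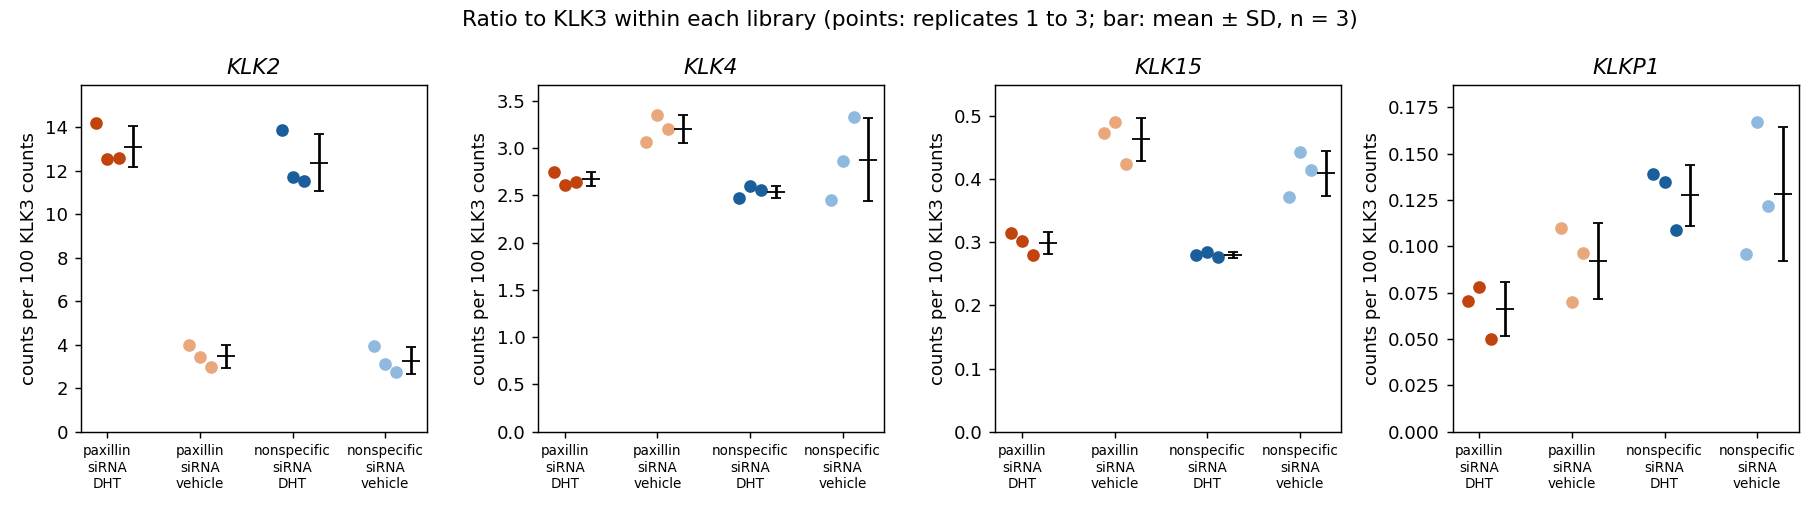
Counts of 4 members per 100 KLK3 counts in the same library (vertical axes, from 0), with 1 point per replicate and the mean ± SD (n = 3), in the 4 groups. KLK2 lies at 11.5 to 14.2 in the DHT libraries and at 2.73 to 3.99 in the vehicle libraries, while KLK15 is lower in DHT than in vehicle.

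The second question was what paxillin depletion did to the cluster. In DHT, 1 of 6 tested members (KLKP1) fell and none rose, against 7% of all tested genes lowered and 6.34% raised. In vehicle, 1 of 6 (again KLKP1) fell and none rose, against 9.78% lowered and 10.7% raised. The median log2 fold change of the members was -0.08 in DHT and -0.15 in vehicle, against 0.00 and -0.01 over all tested genes. All 6 estimates were below 0 in both comparisons, but those of KLK2 and KLK15 in DHT turned to 0.01 each with no scaling beyond library totals.

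KLKP1 had 5.74, 6.45 and 3.96 CPM in paxillin siRNA, against 12.2, 11.7 and 9.67 CPM in nonspecific siRNA, in DHT. This was 2.07-fold lower (log2 -1.05 ± 0.20, edgeR adjusted p = 0.00237), with no overlap, and the call held without any single library. In vehicle it was 1.65-fold lower (log2 -0.72 ± 0.23, adjusted p = 0.032), at 4.41, 2.37 and 3.01 CPM in paxillin siRNA, against 4.81, 6.74 and 4.51 CPM in nonspecific siRNA. The groups in vehicle did not overlap, but replicate 1 of paxillin siRNA lay just under replicate 3 of nonspecific siRNA. That call was lost without replicate 2 (adjusted p = 0.147) or 3 (0.108) of paxillin siRNA with vehicle and without replicate 2 of nonspecific siRNA with vehicle (0.223).

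Some markers of other cell types also differed with the siRNA. Of 5 stromal and mesenchymal markers 3 were tested. VIM, the intermediate filament vimentin, was 2.26-fold higher with paxillin siRNA in DHT (edgeR adjusted p = 9.05e-05) and 2.30-fold higher in vehicle (adjusted p = 5.26e-05). COL1A1, a collagen chain, was 1.36-fold lower in DHT (adjusted p = 0.0024) and 1.20-fold lower in vehicle (adjusted p = 0.0356), and ACTA2, smooth muscle actin, was 1.79-fold higher in vehicle (adjusted p = 0.0141). The 5 markers summed to 49.7 to 58.6 CPM with paxillin siRNA and 45.0 to 51.4 CPM with nonspecific siRNA in DHT, and to 54.5 to 63.0 CPM with paxillin siRNA and 49.1 to 58.2 CPM with nonspecific siRNA in vehicle, so the sums overlapped. Of 3 neuroendocrine markers 2 were tested. INSM1, a neuroendocrine transcription factor with 4 to 50 counts per library, was 3.05-fold lower in DHT (adjusted p = 0.0075) and 3.78-fold lower in vehicle (adjusted p = 0.005). The 3 summed to 2.64 to 5.60 CPM with paxillin siRNA and 5.32 to 7.19 CPM with nonspecific siRNA in DHT, and to 1.63 to 2.70 CPM with paxillin siRNA and 3.18 to 4.07 CPM with nonspecific siRNA in vehicle. The 1 tested endothelial marker, VWF, passed in neither siRNA comparison. In DHT over vehicle, SYP rose with both siRNAs, and COL1A1 and ACTA2 fell with paxillin siRNA. Neither SYP call was kept with no scaling beyond library totals. The part of these markers in the kallikrein results was not tested.

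KLK3 was slightly lower with paxillin siRNA and missed the threshold. In DHT it averaged 8119 ± 156 CPM in paxillin siRNA and 8794 ± 83.7 CPM in nonspecific siRNA (SD, n = 3 each), without overlap but with a log2 fold change of -0.12 ± 0.11 (edgeR adjusted p = 0.52). In vehicle it averaged 3509 ± 465 CPM in paxillin siRNA and 4254 ± 689 CPM in nonspecific siRNA, with a log2 fold change of -0.28 ± 0.11 (adjusted p = 0.0729). Within replicate numbers the vehicle differences were -0.32, -0.25 and -0.25, each on the log2 scale. With the replicate number as a block the vehicle difference passed (adjusted p = 0.00854), as it did with DESeq2 (0.0367) and with no filter on low counts (0.00481). It also passed without replicate 1 of paxillin siRNA with vehicle (0.0167) and without replicate 3 of nonspecific siRNA with vehicle (0.0343).

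KLK2, KLK4 and KLK15 gave log2 fold changes between -0.04 and -0.02 in DHT and between -0.19 and -0.07 in vehicle, none of which passed. The 95% interval of KLK2 ran from -0.46 to 0.40 in DHT and from -0.64 to 0.26 in vehicle, and that of KLK4 from -0.20 to 0.12 in DHT and from -0.27 to 0.06 in vehicle. KLK1 had -0.74 ± 0.40 in DHT (edgeR adjusted p = 0.245) and -0.02 ± 0.45 in vehicle (adjusted p = 0.977). Without replicate 1 of paxillin siRNA with DHT the first of these passed, at -1.39 (adjusted p = 0.0371).

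The third question was whether the DHT response itself differed between paxillin and nonspecific siRNA. For the interaction, 0 of 6 tested members were called by edgeR, DESeq2 or limma-voom and 0 had an unadjusted p under 0.05 in edgeR, against 0.0496% of all tested genes called in either direction. The smallest unadjusted p was 0.247, for KLK1. The response with paxillin siRNA minus that with nonspecific siRNA was 0.16 ± 0.27 for KLK2 (95% interval -0.46 to 0.78), 0.16 ± 0.15 for KLK3 (-0.18 to 0.51) and 0.06 ± 0.10 for KLK4 (-0.17 to 0.29), on the log2 scale. KLKP1 had -0.33 ± 0.31 (-1.04 to 0.37), so a smaller response with paxillin siRNA was not shown for it at this depth. KLK15 had 0.05 ± 0.16 (-0.31 to 0.42) and KLK1 -0.72 ± 0.60 (-2.10 to 0.66).

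Of the other 8 kallikreins, KLK12 and KLK14 had enough counts to be tested. KLK12 adjoins KLK11 (chr19:51029092-51035230, minus strand) and had 939 counts in all. It had 2.79, 3.54 and 2.72 CPM in DHT, against 1.71, 1.93 and 1.70 CPM in vehicle, with paxillin siRNA, and rose (log2 0.76 ± 0.20, edgeR adjusted p = 0.0061). With nonspecific siRNA the values overlapped, at 5.05, 3.44 and 4.39 CPM in DHT, against 3.34, 4.15 and 3.01 CPM in vehicle (0.29 ± 0.19, adjusted p = 0.235), and the interaction was not called (adjusted p = 0.637). In vehicle KLK12 was lower with paxillin siRNA (-0.98 ± 0.20, adjusted p = 0.00256), and in DHT it did not pass (-0.51 ± 0.19, adjusted p = 0.0754). KLK14, named after its values were seen, had 102 counts in all and passed in no comparison. KLK9 had 0 counts in all 12 libraries, which allows up to 0.00983 CPM over the pooled libraries, and KLK8, KLK7, KLK6, KLK13 and KLK5 had 1, 6, 15, 19 and 25 counts.

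The genes around the cluster were called in DHT about as often as all genes with paxillin siRNA. Of 5 tested flanking genes, 1 rose and 1 fell with paxillin siRNA, against 20.1% of all tested genes raised and 17.9% lowered. With nonspecific siRNA 3 rose and none fell (2 rose and 1 fell with upper-quartile scaling and with none), against 21.6% raised and 18.9% lowered. C19orf48, which ends 14.22 kb from KLK1 (chr19:50797704-50804929), averaged 412 ± 34.9 CPM in DHT and 238 ± 25.8 CPM in vehicle with paxillin siRNA. Its mean with nonspecific siRNA was 515 ± 53.0 CPM in DHT and 278 ± 29.7 CPM in vehicle. It rose with paxillin siRNA (log2 0.79 ± 0.10, edgeR adjusted p = 3.35e-06) and with nonspecific siRNA (0.90 ± 0.10, adjusted p = 7.56e-07). SYT3, a synaptotagmin gene with 7 to 44 counts per library, fell with paxillin siRNA (-1.21 ± 0.30, adjusted p = 0.00442). CLEC11A, which encodes a secreted growth factor, and CTU1, which encodes a tRNA-modifying enzyme, rose with nonspecific siRNA (0.62 ± 0.10 and 0.57 ± 0.21). CTU1 was lost under upper-quartile scaling (adjusted p = 0.0587), without scaling (0.102) and without replicate 1 of nonspecific siRNA with DHT (0.209) or replicate 2 (0.159) or 3 (0.0501) of nonspecific siRNA with vehicle. Compared with nonspecific siRNA within vehicle, paxillin siRNA raised CLEC11A (0.65 ± 0.10, adjusted p = 0.00028). There 2 of the 5 rose and none fell, against 10.7% of all tested genes raised and 9.78% lowered. The second was CD33, a myeloid cell lectin named after its values were seen, which also rose in DHT. CD33 had 8 to 24 counts per library with paxillin siRNA and 1 to 6 with nonspecific siRNA. Within DHT 1 of the 5, CD33, rose with paxillin siRNA and 1, C19orf48, fell (-0.32 ± 0.10, adjusted p = 0.0313). Of all tested genes 6.34% rose and 7% fell in that comparison. With no scaling beyond library totals 2 of the 5 rose and 1 fell. The C19orf48 call was lost without replicate 2 (0.0968) or 3 (0.128) of paxillin siRNA with DHT or replicate 1 of nonspecific siRNA with DHT (0.151).

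**Figure D4:**
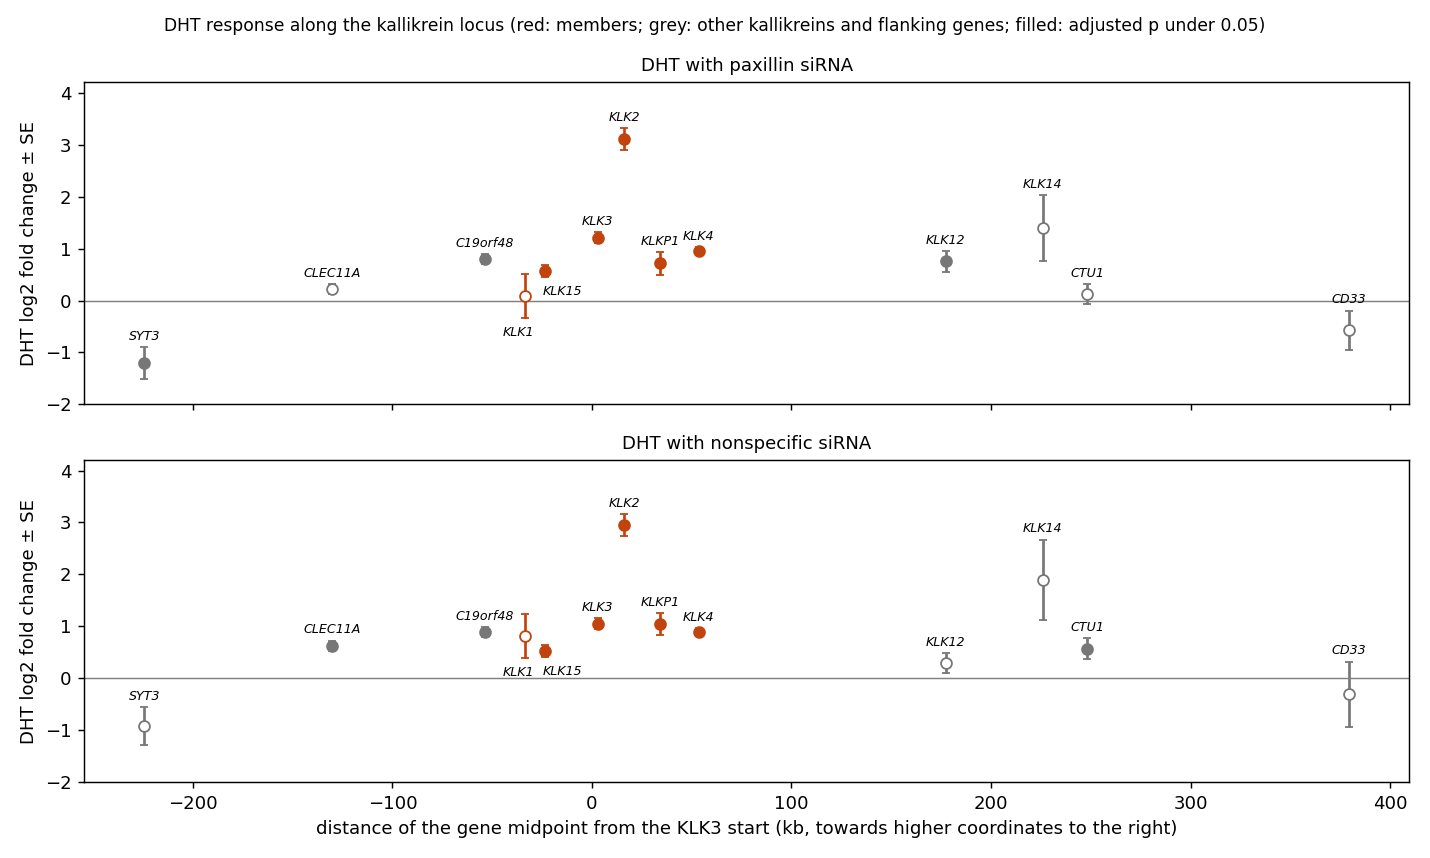
DHT log2 fold change ± SE (vertical axes) against the distance of each gene's midpoint from the KLK3 start in kb, with paxillin siRNA above and nonspecific siRNA below; members are red, other kallikreins and flanking genes grey, and filled points had an edgeR adjusted p under 0.05. KLK2 is the highest point in both panels (3.11 and 2.95), and the filled members lie between 0.52 and 3.11.

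In a list of genes for kallikrein substrates, activators and kinin receptors, which also held ACPP and MSMB, more fell than rose in DHT. Of 15 tested, 2 rose and 9 fell in DHT with paxillin siRNA, against 20.1% of all tested genes raised and 17.9% lowered (28.6% lowered with no scaling beyond library totals). With nonspecific siRNA 3 rose and 8 fell, against 21.6% raised and 18.9% lowered (32.2% lowered with no scaling). The median log2 fold changes of the 15 were -0.78 with paxillin siRNA and -0.74 with nonspecific siRNA, against -0.01 over all tested genes in both. TMPRSS2, a membrane protease whose promoter is androgen-driven, rose by log2 2.40 ± 0.15 with paxillin siRNA and 2.35 ± 0.15 with nonspecific siRNA. F2RL1, a receptor cleaved by trypsin-like proteases, rose by 0.56 ± 0.06 with paxillin siRNA and 0.63 ± 0.06 with nonspecific siRNA, and HPN, the membrane protease hepsin, rose with nonspecific siRNA (0.43 ± 0.10, edgeR adjusted p = 0.00187). F2R, the thrombin receptor, averaged 25.4 ± 3.14 CPM in DHT and 98.1 ± 9.25 CPM in vehicle with paxillin siRNA (-1.95 ± 0.11). BDKRB2, the kinin B2 receptor, and PTHLH, which encodes the hormone-related peptide that KLK3 can cleave, fell with both siRNAs. The log2 fold change of BDKRB2 was -2.06 with paxillin siRNA and -1.71 with nonspecific siRNA, and that of PTHLH was -2.67 with paxillin siRNA and -2.91 with nonspecific siRNA. Both genes were low, with 8 to 114 counts per library for BDKRB2 and 3 to 40 for PTHLH. SEMG1 and SEMG2, the semenogelin substrates, had 5 counts each in all 12 libraries.

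Compared with nonspecific siRNA within DHT, paxillin siRNA raised 2 of these 15 genes and lowered 1, against 6.34% of all tested genes raised and 7% lowered. Within vehicle, paxillin siRNA raised 4 and lowered 2, against 10.7% raised and 9.78% lowered. Within DHT, ACPP, which encodes prostatic acid phosphatase, was higher with paxillin than with nonspecific siRNA (log2 0.73 ± 0.11, edgeR adjusted p = 0.000311). LAMB1, a laminin chain, was lower with paxillin siRNA there (-0.67 ± 0.09, adjusted p = 0.00016). Within vehicle, FN1, which encodes fibronectin, was lower with paxillin siRNA (-0.49 ± 0.11, adjusted p = 0.00537). DHT over vehicle lowered ACPP with paxillin siRNA (-1.15) and with nonspecific siRNA (-1.58). It also lowered LAMB1 (-0.80 and -0.49) and FN1 (-0.78 and -0.92). The siRNA calls of F2RL1 within DHT and of ACPP, BDKRB1 and MSMB within vehicle were each lost without at least 1 library. Their adjusted p-values then ran up to 0.12, 0.131, 0.0857 and 0.0912, in that order. The siRNA call of LAMB1 within vehicle (-0.36 ± 0.09, adjusted p = 0.00749) was lost without replicate 2 of nonspecific siRNA with vehicle (0.0535).

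Of 16 protease inhibitors, 5 were tested. With paxillin siRNA 1 of them, SERPINB6, an intracellular serpin, rose in DHT over vehicle (log2 0.20 ± 0.06, edgeR adjusted p = 0.0188) and none fell. Of all tested genes 20.1% rose and 17.9% fell. SERPINB6 was 0.11 (adjusted p = 0.18) with upper-quartile scaling and 0.07 (0.431) with no scaling beyond library totals, and 1 other inhibitor fell under each. With nonspecific siRNA none passed (1 fell with upper-quartile scaling and with none), against 21.6% raised and 18.9% lowered of all tested genes. SERPINB6 was also the 1 inhibitor raised by paxillin siRNA, in DHT (0.29 ± 0.06, adjusted p = 0.00502) and in vehicle (0.21 ± 0.06, adjusted p = 0.0251), and none was lowered. Of all tested genes the siRNA raised 6.34% and lowered 7% in DHT, and raised 10.7% and lowered 9.78% in vehicle. The DHT rise was lost without replicate 2 of paxillin siRNA with DHT (0.134) or replicate 1 of paxillin siRNA with vehicle (0.105). The vehicle difference was lost without replicate 2 (0.0836) or 3 (0.0753) of paxillin siRNA with vehicle or replicate 3 of nonspecific siRNA with vehicle (0.0558). SERPINA3, the circulating inhibitor that binds most serum KLK3 protein and named after its values were seen, averaged under 1 CPM in all 4 groups and passed in no comparison. SPINK6 and PZP had 0 counts in all libraries, as did the flanking genes GPR32 and SIGLEC7.

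Several transcription factors of the prostate lineage also responded to DHT. SPDEF and GRHL2, epithelial transcription factors, rose by log2 1.81 and 1.10 with paxillin siRNA and by 2.17 and 1.20 with nonspecific siRNA. FOXA1, named after its values were seen, also rose with paxillin siRNA (0.32 ± 0.07). PGR, the progesterone receptor, and HOXB13, a prostate homeobox factor, fell. PGR had -4.11 with paxillin siRNA and -4.48 with nonspecific siRNA, and HOXB13 had -0.33 with each. The PGR values rest on 1 to 125 counts per library.

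With paxillin siRNA in vehicle, FOXA1, which encodes a pioneer transcription factor, was lower than with nonspecific siRNA (log2 -0.30 ± 0.07, edgeR adjusted p = 0.00525), and the call held without any single library. The HOXB13 calls in DHT and vehicle and that of SPDEF in vehicle were each lost without at least 1 library, with adjusted p-values of up to 0.0601, 0.0766 and 0.0869.

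The likeness of patterns was measured as Pearson's r of log2 CPM over the 12 libraries, which share their groups and depths, against 10664 genes with a mean of at least 5 CPM in some group. KLK2 was most like TMPRSS2 (0.999), PHF8 (0.997) and PTPRM (0.996). KLK3 was most like FAM83F (0.993), NDFIP2 (0.990) and TMPRSS2 (0.989), and KLK4 most like BCCIP (0.996), DNM1L (0.994) and HERC3 (0.994). A high r does not mean an equal size of response: FAM83F rose by log2 0.42 in DHT with paxillin siRNA and HERC3 by 3.19. KLK15 was nearest to ANGEL2 (0.980), SLC39A10 (0.979) and MOB1A (0.974), KLKP1 to RPF2 (0.959), C2orf72 (0.953) and AP1AR (0.950), and KLK1 to STX2 (0.893), KATNA1 (0.884) and RPS9 (0.876).

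Within the cluster, KLK2, KLK3 and KLK4 tracked each other at r of 0.982 to 0.988, and KLK15 tracked them at 0.942 to 0.954. KLKP1 correlated with those 4 genes at 0.675 to 0.743 and KLK1 with the other 5 at 0.404 to 0.553. These values describe 12 libraries in 4 groups and carry no test.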

How the data were processed

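RNA was made into stranded mRNA libraries, per the labels' protocols. The authors deposited raw counts per gene symbol, taken as counts because they are whole numbers with unequal totals. Trimmomatic 0.36, STAR 2.5.2b, featureCounts from Subread 1.5.0p3 and the build GRCh38 are named per the submitters' processing notes, while the annotation release is not given in the sources used here. Genes were filtered with filterByExpr (minimum count 10, minimum total 15), scaled by TMM and tested in 1 edgeR 4.0.16 quasi-likelihood fit of 4 group means to 12 libraries (R 4.3.3), with Benjamini-Hochberg adjustment over 16115 genes and calls under 0.05. Standard errors come from the F statistic, and the 95% intervals use 8 residual degrees of freedom. The ratio test used raw counts, with 0.5 added to each as an alternative. The pipeline was tested on simulated counts. Alternatives used DESeq2 1.42.0, limma 3.58.1 (voom), other scalings, no filter, fits of the compared groups alone, a threshold of 0.01, each library left out, and the replicate block.

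Members and lists were chosen with earlier results of these data known. The text names all members, the 3 genes most like each tested member, up to 3 rising and 3 falling called genes of a list per comparison (where a group averaged 1 CPM or more), and list genes at 0 counts. Results of some further list genes are not reported here. Replicate numbers come from the labels' titles. Over 10701 genes, libraries with the same number deviated together (r of 0.14 to 0.48 in all 18 pairs, against -0.43 to 0.21 in 36 other pairs), so the numbers were taken to pair samples. No 2 replicates were alike within sampling noise (chi-square divided by its degrees of freedom 6.16 to 18.6). Floors of 3 counts cover counting error only. Promoters are from RefSeq on GRCh38.p14.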

Additional observations from a re-analysis of the deposited data

How the results depend on the processing

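The members raised by DHT numbered 5 with paxillin siRNA (4 to 5 over the alternatives) and 5 with nonspecific siRNA (5 to 6), none was lowered by DHT or called for the interaction in any alternative, and both ratio tests kept their side of the threshold when 1 library was left out or 0.5 was added to each count. With the replicate block, chosen after seeing the data, the siRNA difference of the KLK2 to KLK3 ratio, at log2 0.0897, passed (exact permutation p = 0.0312) and the DHT difference still passed (p = 0.0312). Members lowered by paxillin siRNA in vehicle numbered 1, but 2 with no filter on low counts, 2 with DESeq2, 2 with the replicate block and 0 at an adjusted p under 0.01, and 0 to 2 over the fits that left out 1 library. In DHT they numbered 1, and 1 to 2 over those fits. The replicate block changed no other call of a member. With no scaling beyond library totals, log2 estimates that did not pass changed sign, to -0.0398 for KLK1 in DHT over vehicle with paxillin siRNA and to 0.0143 for KLK15 and 0.0055 for KLK2 with paxillin siRNA in DHT. Leaving out 1 library gave uncalled estimates that included both signs. These ran from -0.55 to 0.45 for KLK1 in DHT over vehicle with paxillin siRNA, from -0.0636 to 0.0328 for KLK15 and -0.0966 to 0.0580 for KLK2 with paxillin siRNA in DHT, and from -0.39 to 0.36 for KLK1, -0.19 to 0.0655 for KLK15 and -0.42 to 0.13 for KLK2 with paxillin siRNA in vehicle. For the interaction they ran from -0.0902 to 0.17 for KLK15, from -0.17 to 0.38 for KLK2 and from -0.0283 to 0.12 for KLK4. The cause of these changes was not tested. Depth limits KLK1, KLK10, KLK11 and, less so, KLKP1.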
